A study of Homo sapiens with 9 samples.

Results

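The genes described here are 9 chaperones, cochaperones and folding enzymes of the endoplasmic reticulum (ER) and the transcription factor XBP1, measured by RNA-seq in BxPC3, an established human cell line of pancreatic ductal adenocarcinoma. The members were HSPA5, DNAJB9, SDF2L1, HSP90B1, CALR, CANX, PDIA3, PDIA4, PDIA6 and XBP1, chosen by symbol, and they make up 10 of the 60564 gene rows of the deposited table. They were chosen with earlier results of these data known, so their shares and medians describe the set and do not test it. All 10 passed the filter on low values and were tested among 12747 genes. Proteins bound for secretion or for the cell surface fold in the ER, where chaperones hold unfolded chains and isomerases form their disulfide bonds. When unfolded proteins build up, the sensors IRE1, ATF6 and PERK start the unfolded protein response. IRE1 then splices the XBP1 messenger RNA so that it encodes an active factor, and ATF6 and XBP1 raise the transcription of many chaperone genes. Pancreatic exocrine cells carry a heavy secretory load and are known for high levels of these genes.

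The study had 9 libraries in 3 groups of 3, described as biological replicates in the labels and all from the same line grown in serum-containing medium. One group received vehicle, one was transfected with a small interfering RNA (siRNA) against STAT3, a transcription factor that relays cytokine signals, and one received WB436B, a compound with only a code name here, at 0.1 µM. The sources used here give neither the time under treatment nor a non-targeting siRNA group, so loss of STAT3 and transfection as such cannot be told apart in the siRNA comparison. Both comparisons with vehicle use the same 3 vehicle libraries, and whether the replicates were separate cultures is said by that label alone, so p-values here cover only the spread among these libraries.

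STAT3, the target of the siRNA, was measured at 16.4, 15.8 and 15.1 FPKM (fragment counts divided by transcript length and by library total) in the vehicle libraries. It stood at 2.98, 2.58 and 3.02 FPKM after the siRNA and at 10.5, 10.9 and 10.8 FPKM with WB436B. The siRNA libraries thus held 18.1% of the vehicle mean of STAT3 and the WB436B libraries 68.0%, and no ranges overlapped. Of 8 epithelial marker genes, 7 reached at least 10 FPKM in all 9 libraries, with sums of 1259 to 1287 FPKM in vehicle, 1235 to 1315 in siRNA and 1117 to 1265 in WB436B libraries. Of the acinar markers 6 of 7 stayed below 1 FPKM throughout, CPB1, CELA3A and PNLIP were listed at 0, CEL reached 7.69 FPKM, and the list summed to 7.0 to 7.70 FPKM in vehicle, 3.46 to 4.75 in siRNA and 1.77 to 2.20 in WB436B libraries. All 5 islet and all 5 endothelial markers stayed below 1 FPKM, with INS, GCG, SST, PPY and KDR listed at 0, as did 4 of 6 fibroblast and 4 of 6 leukocyte markers, whose highest values were 2.40 FPKM for COL1A1 and 5.12 FPKM for CD68. The fibroblast list summed to 1.89 to 2.12 FPKM in vehicle, 3.43 to 3.77 in siRNA and 0.721 to 0.881 in WB436B libraries, and the leukocyte list to 5.90 to 8.41, 3.92 to 6.24 and 3.13 to 3.58 FPKM; their part in the results was not tested. Depth, as estimated from the smallest steps of FPKM, was about 47200000 fragments in vehicle library 1 and 14900000 to 20400000 in the other 8 libraries. In bulk RNA, fewer cells of a type and less RNA per cell cannot be told apart.

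Chaperone genes of the ER are known for a shared promoter sequence, the ER stress response element, spelled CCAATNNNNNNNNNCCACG, in which the first part is bound by the factor NF-Y and the last by ATF6 or XBP1. It is shown here because most members with a promoter window share it. RefSeq promoter windows of GRCh38.p14, which run from 250 bases before to 50 bases after each annotated start site, held it on either strand in 27 of 35116 cases (0.0769%). Counted by gene, 25 of 27305 genes with a window held it. Among the 9 members with a window, 6 held it, in 8 of 15 windows, namely HSPA5, HSP90B1, CALR, CANX, PDIA6 and XBP1. HSP90B1 had 2 copies, and 3 overlapping windows of CANX showed the same copy. The second form of the element, ATTGGNCCACG, was found in 19 windows (0.0541%), with SDF2L1 as the only member. DNAJB9 and PDIA4 held neither form in these windows. Each copy is printed 5′ to 3′ in the direction in which the element reads, with the element in capitals, 5 bases on either side in lower case, and the strand of the printed sequence in brackets.
HSPA5, chr9:125241386-125241414 (-): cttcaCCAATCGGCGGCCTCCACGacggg
HSP90B1, distal copy, chr12:103930211-103930239 (+): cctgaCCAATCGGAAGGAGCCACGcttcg
HSP90B1, proximal copy, chr12:103930316-103930344 (-): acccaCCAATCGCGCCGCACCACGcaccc
CALR, chr19:12938379-12938407 (-): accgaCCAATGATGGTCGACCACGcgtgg
CANX, chr5:179698773-179698801 (+): cccggCCAATCTTCACACTCCACGaagaa
PDIA6, chr2:10812848-10812876 (-): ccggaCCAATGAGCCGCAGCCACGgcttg
XBP1, chr22:28800598-28800626 (-): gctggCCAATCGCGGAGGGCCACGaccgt
SDF2L1, second form, chr22:21642109-21642129 (-): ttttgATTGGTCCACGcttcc

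Apart from CANX, the elements lay upstream of the annotated start sites whose windows show them, as the map of promoter windows shows. The CANX copy spanned the most upstream of these starts, at -9 to 10 bases, and lay at -151 to -133 and -189 to -171 bases of others. Of the other members, XBP1 had the copy closest to its first start site, at -52 to -34 bases. HSPA5 followed at -66 to -48 bases and PDIA6 at -86 to -68 bases of its second annotated start. The HSP90B1 copies lay at -194 to -176 and at -89 to -71 bases, and the CALR copy lay farthest out, at -225 to -207 bases. The 120 bases that precede the HSPA5 start site, on the minus strand of chr9:125241344-125241463, are printed because the HSPA5 calls held in every alternative tried, with the same element in capitals.
HSPA5 promoter: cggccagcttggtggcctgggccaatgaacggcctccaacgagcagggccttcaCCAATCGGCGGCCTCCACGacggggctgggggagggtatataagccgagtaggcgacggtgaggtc
The core of the unfolded protein response element, TGACGTGG, was present in 256 windows (0.729%) and the STAT motif TTCNNNGAA in 2689 windows (7.66%), in both cases in none of the 15 windows of the members, on either strand. CCACG, the end of both forms of the element, reads CGTGG on the other strand and is in that orientation the end of TGACGTGG; the STAT motif shares no fixed stretch with them. The missing match says only that these letters are not in these windows.

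**Figure D1:**
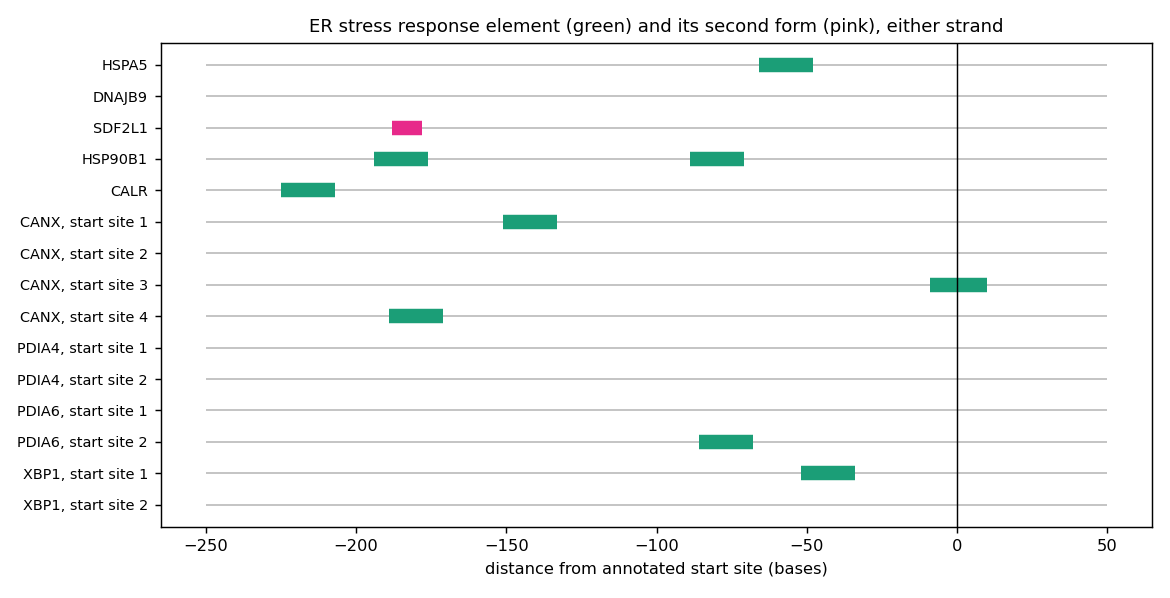
Promoter windows of 9 members, drawn as grey lines from 250 bases before to 50 bases after each annotated start site (x axis, bases from the start site; black line, start site), with the ER stress response element in green and its second form in pink. The element appears in the windows of 6 members, with 2 copies in HSP90B1, and the second form appears in SDF2L1 alone; CANX start sites 1, 3 and 4 show the same copy.

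Vehicle-treated BxPC3 cells expressed most of the set at high levels. HSPA5, which encodes BiP, the ER member of the Hsp70 family, averaged 328 FPKM and ranked 68th by mean FPKM among the 12747 genes tested, and CALR (calreticulin) averaged 321 FPKM and ranked 71st. The libraries of these neighbours overlapped, so their order in vehicle cells was not resolved. HSP90B1 (189 FPKM), PDIA3 (166 FPKM), PDIA4 (163 FPKM) and CANX (129.9 FPKM) followed, and among these neighbours PDIA3 and PDIA4 overlapped. PDIA6 at 35.3 FPKM and XBP1 at 19.6 FPKM were lower in every library. DNAJB9 (4.38 FPKM) and SDF2L1 (4.01 FPKM) were the weakest and overlapped each other. These levels are per length and can be compared between genes on the FPKM scale.

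The order changed with treatment. CALR stood above HSPA5 in every siRNA library and in every WB436B library. HSP90B1 held the third place in vehicle and in WB436B libraries and the sixth of 10 after STAT3 siRNA, below CANX, PDIA4 and PDIA3 by mean, with all of its libraries below those of PDIA3. SDF2L1 and DNAJB9 exchanged places with WB436B, where all SDF2L1 values exceeded all DNAJB9 values. Summed over the 10 members, the vehicle libraries held 1272, 1382 and 1429 FPKM, the siRNA libraries 965, 918 and 973 FPKM, and the WB436B libraries 1183, 1138 and 1128 FPKM. As a share of each library's total FPKM, the members took 0.462% to 0.477% in vehicle, 0.333% to 0.349% after siRNA and 0.409% to 0.425% with WB436B, so that the 3 groups did not overlap.

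**Figure D2:**
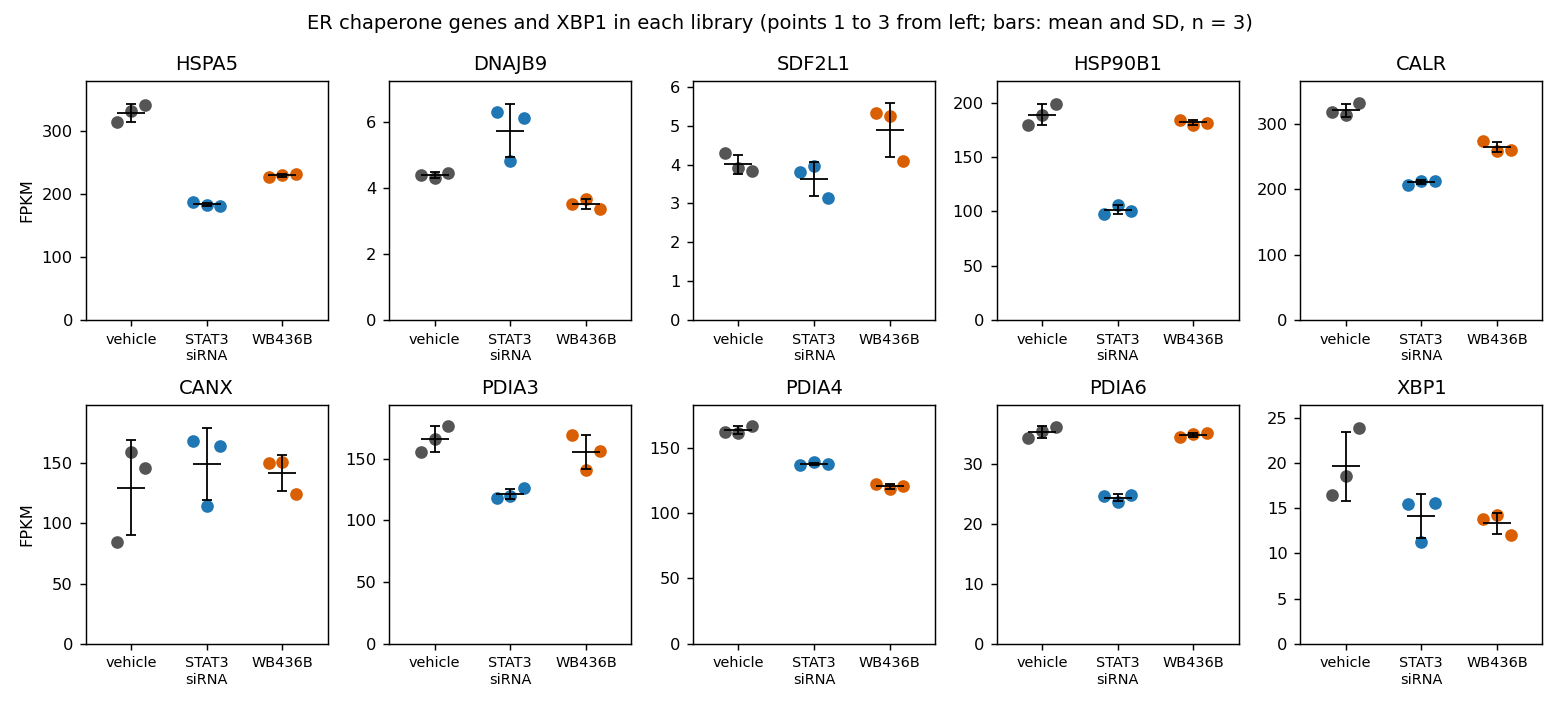
FPKM (y axis, linear from 0) of each member in each library (points, libraries 1 to 3 from left to right within a group) with the group mean and SD (bars, n = 3). HSPA5, DNAJB9, CALR and PDIA4 separate all 3 groups, HSP90B1, PDIA3 and PDIA6 are low after STAT3 siRNA alone, and CANX overlaps in every comparison.

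STAT3 siRNA libraries held less messenger RNA of most of the set than vehicle libraries. HSPA5, HSP90B1, CALR, PDIA3, PDIA4, PDIA6 and XBP1 fell, DNAJB9 rose, and CANX and SDF2L1 did not pass the test. The fit was limma with an intensity trend on log2(FPKM + 1) over all 9 libraries, with p-values adjusted over all genes tested (Benjamini-Hochberg) and a threshold of 0.05. Thus 7 of 10 members were called lower, where 22.3% of all genes tested were, and 1 was called higher, where 29.8% were. Since the members were chosen with earlier results known, these shares are a description and no test of the set. The median log2 fold change of the members was -0.45 and that of all genes tested 0.062, and for 8 members the libraries of both groups did not overlap, which was the case for 60.5% of all genes tested. All 7 lower calls were also made after scaling to equal totals, by median of ratios and by quantiles.

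With WB436B, HSPA5, CALR, PDIA4, DNAJB9 and XBP1 fell against vehicle, none of the 10 was called higher, and HSP90B1, PDIA3, PDIA6, CANX and SDF2L1 did not pass the test. The share of members called lower, 5 of 10, stood beside 41.1% of all genes tested, and the 0 members called higher beside 24.9%. Non-overlapping libraries were seen for 5 members and for 70.1% of all genes. The members' median was -0.18 and that of all genes -0.13, so 5 members lay above and 5 below the all-gene median. That median depends on the filter and on the scaling. For the 7042 genes that passed a filter of 5 FPKM it was 0.021, with 2448 called higher and 2412 lower. Weak genes thus weigh on the all-gene median and on the shares called. Median-of-ratios scaling moved the median by 0.13 to near 0, and quantile normalization moved it by 0.16. The members' call count depends on the scaling as well. It was 4 lower and 1 higher after scaling to equal totals. By median of ratios 3 were lower and 2 higher, and by quantiles 6 were lower and 1 higher.

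The direct comparison of WB436B with STAT3 siRNA separated the set further. HSPA5, HSP90B1, CALR, PDIA3, PDIA6 and SDF2L1 were higher with WB436B, PDIA4 and DNAJB9 were lower, and CANX and XBP1 did not pass the test. The 6 members called higher compare with 20% of all genes tested, and the 2 called lower with 44.1%. Libraries did not overlap for 8 members and for 70.2% of all genes. The members' median was 0.32 while that of all genes was -0.18. Other scalings moved the all-gene median by up to 0.18, and with a filter of 5 FPKM it was -0.058. The same 6 members were called higher under each of the 3 other scalings. Relative to the all-gene median, 8 members lay above it and 2 below. A test of one gene alone, by exact permutation of 3 against 3 libraries, cannot give a two-sided p under 0.1, so single-gene calls rest on the fit across all genes.

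**Figure D3:**
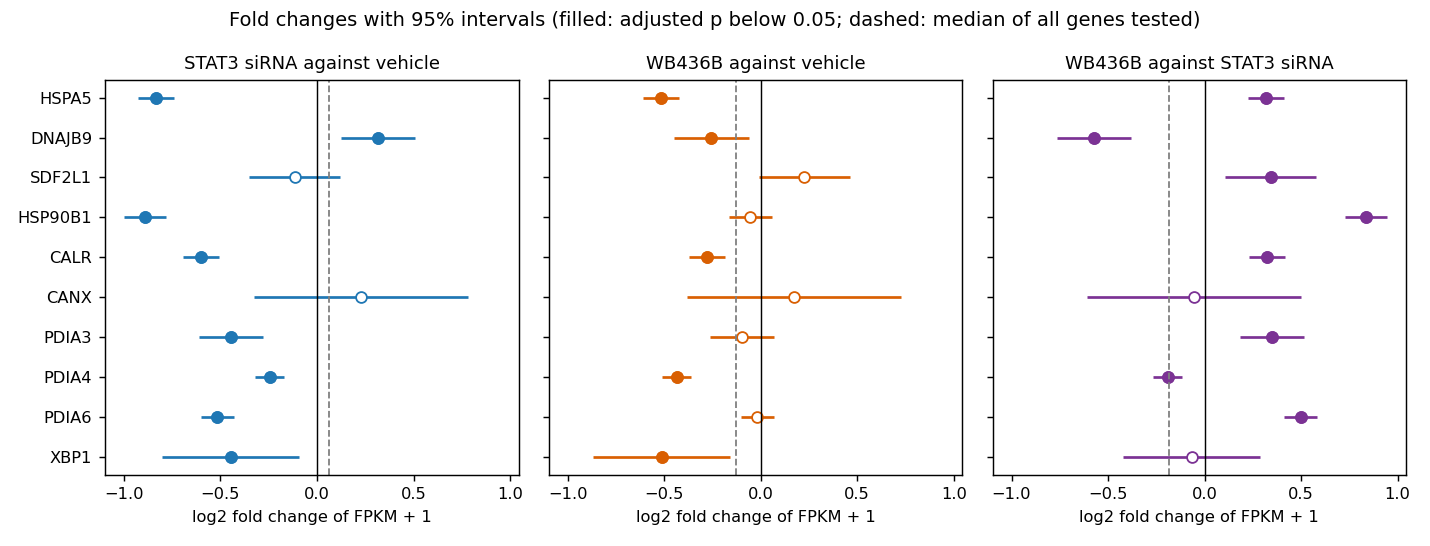
Log2 fold change of FPKM + 1 (x axis) of each member in the 3 comparisons, with 95% intervals; filled points passed an adjusted p of 0.05 (limma), and the dashed line is the median of all genes tested. Most members lie left of zero after STAT3 siRNA, and the points of WB436B against vehicle scatter around the dashed line. Against siRNA, 8 members lie right of that line and 2 left of it. With median-of-ratios scaling HSP90B1, PDIA3 and PDIA6 against vehicle and CANX, PDIA4 and XBP1 against siRNA change sign. With equal totals HSP90B1 and PDIA6 against vehicle do.

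HSPA5 (ENSG00000044574, on chromosome 9) encodes BiP, which binds unfolded chains and keeps the stress sensors inactive. The vehicle libraries held 313, 331 and 341 FPKM, the siRNA libraries 186, 182 and 181 FPKM, and the WB436B libraries 227, 230.0 and 231 FPKM. All siRNA values were the lowest, all WB436B values lay between, and no groups overlapped. The siRNA mean was 55.8% of vehicle, or -0.84 as log2 fold change (SE 0.041, adjusted p = 1.57e-06). The WB436B mean was 69.8% of vehicle (log2 fold change -0.52, SE 0.041, adjusted p = 8.49e-06) and exceeded the siRNA mean by 0.32 on the log2 scale (adjusted p = 0.000171). Relative to the all-gene median, the WB436B change was -0.39. All 3 differences were called in each of the 20 alternatives.

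DNAJB9 (ENSG00000128590, chromosome 7) encodes ERdj4, a cochaperone that delivers clients to BiP and helps hold IRE1 inactive. It was measured at 4.4, 4.29 and 4.46 FPKM in vehicle, at 6.29, 4.81 and 6.10 FPKM after siRNA and at 3.50, 3.65 and 3.37 FPKM with WB436B. Every siRNA value lay above, and every WB436B value below, all vehicle values, with siRNA library 2 close to vehicle. DNAJB9 was the only member that rose with the siRNA, by 0.32 on the log2 scale (SE 0.084, adjusted p = 0.0131), to 131% of the vehicle mean. It fell by 0.26 with WB436B (adjusted p = 0.0258) and stood 0.57 lower with WB436B than with the siRNA, a log2 fold change of -0.57 (adjusted p = 0.000407). The WB436B call against vehicle was lost in 10 of 19 alternatives, among them without vehicle library 1, 2 or 3 or WB436B library 1 or 3 (adjusted p = 0.0501 to 0.0729), and with quantile normalization the value was -0.057 (adjusted p = 0.606). At these low levels the added 1 FPKM makes the log2 values smaller than those of the FPKM ratio.

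SDF2L1 (ENSG00000128228, chromosome 22), a component of BiP complexes with ER J-domain proteins, was measured at 4.29, 3.91 and 3.83 FPKM in vehicle. It stood at 3.80, 3.96 and 3.14 FPKM after siRNA and at 5.32, 5.24 and 4.09 FPKM with WB436B. The siRNA libraries overlapped the vehicle libraries, and so did WB436B library 3. The siRNA difference was -0.12 (95% interval -0.35 to 0.12, adjusted p = 0.376). The WB436B difference from vehicle was 0.23 (95% interval -0.0086 to 0.46, adjusted p = 0.0815) and passed the threshold in 6 of 19 alternatives, including all 3 other scalings (0.28 to 0.39) and the fit without WB436B library 3 (0.33, adjusted p = 0.0142). Between the treatments, SDF2L1 was 0.34 higher with WB436B (adjusted p = 0.0174), a call lost without siRNA library 3 or WB436B library 1 or 2 (adjusted p = 0.0599, 0.0610 and 0.0603). An estimated 63 to 220 fragments per library lay behind SDF2L1 and 160 to 590 behind DNAJB9.

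HSP90B1 (ENSG00000166598, chromosome 12) encodes GRP94, the Hsp90 of the ER, which folds integrins and Toll-like receptors among other clients. Its vehicle values were 179.8, 189 and 199 FPKM and its siRNA values 97.9, 106 and 101 FPKM. With WB436B it was measured at 185, 179.9 and 182 FPKM, inside the range of the vehicle libraries. The siRNA libraries lay far below both other groups, at 53.7% of the vehicle mean. This was the largest fall of any member in that comparison, at -0.89 on the log2 scale (SE 0.048, adjusted p = 2.69e-06). The WB436B difference from vehicle was -0.054 (95% interval -0.16 to 0.056, adjusted p = 0.348), and its sign turned with scaling to equal totals and by median of ratios (0.017 and 0.11) without a call. WB436B libraries exceeded siRNA libraries by 0.84 (adjusted p = 2.26e-06).

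HSPA5 and HSP90B1 fell together with the siRNA but separated with WB436B, which their ratio within each library shows without any scaling between libraries. The FPKM ratio of HSPA5 to HSP90B1 was 1.74, 1.75 and 1.71 in vehicle and 1.90, 1.72 and 1.80 after siRNA. With WB436B it was 1.23, 1.28 and 1.27, below every other library. The mean ratios were 1.74 ± 0.019, 1.81 ± 0.092 and 1.26 ± 0.027 (SD, n = 3). The ratio of DNAJB9 to HSPA5 was above every vehicle library in both treated groups and highest after siRNA, at 0.0134 ± 0.00060 in vehicle, 0.0313 ± 0.0042 after siRNA and 0.0153 ± 0.00064 with WB436B (SD, n = 3). These ratios were chosen after the values were seen and are given as a description.

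**Figure D4:**
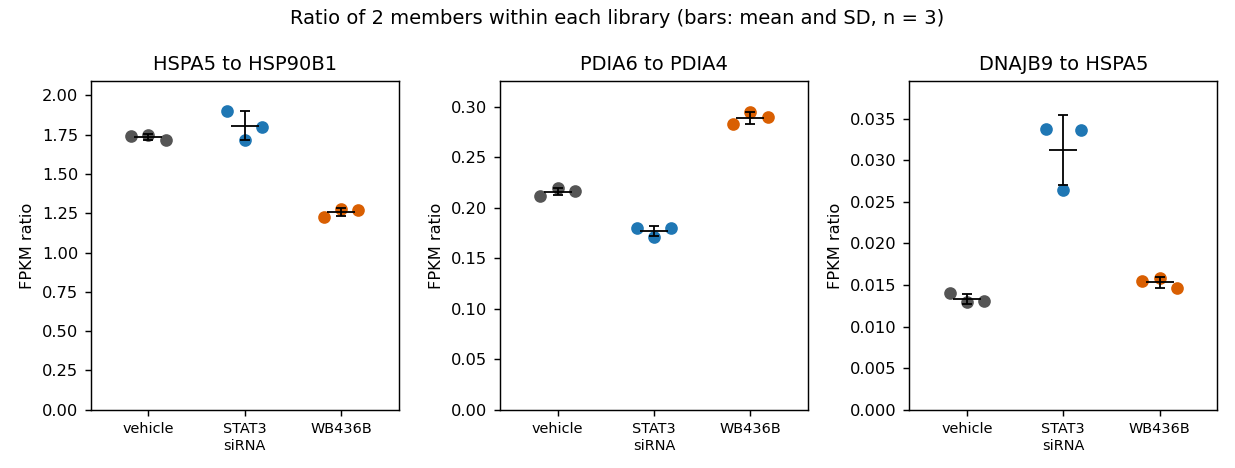
Ratio of FPKM values of member pairs within each library (points, y axis from 0) with group mean and SD (bars, n = 3) for HSPA5 to HSP90B1, PDIA6 to PDIA4, and DNAJB9 to HSPA5. The first ratio is lowest in WB436B libraries (1.23 to 1.28), the second is lowest after siRNA and highest with WB436B, and the third is highest after siRNA (0.0264 to 0.0337).

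CALR (ENSG00000179218, chromosome 19) and CANX (ENSG00000127022, chromosome 5) encode calreticulin and calnexin, the soluble and the membrane-bound lectin chaperone that hold glycoproteins while they fold. CALR was measured at 318, 313 and 332 FPKM in vehicle, 207, 213 and 213 FPKM after siRNA, and 273, 259 and 260.3 FPKM with WB436B. The 3 groups did not overlap, with WB436B libraries in the middle. The siRNA mean was 65.7% of vehicle (log2 fold change -0.60, adjusted p = 8.24e-06) and the WB436B mean 82.3% (-0.28, adjusted p = 0.000323). WB436B exceeded siRNA by 0.32 (adjusted p = 0.000157). The WB436B call against vehicle was lost in 1 of 20 alternatives (adjusted p = 0.06965), and by median of ratios the value was -0.12 (adjusted p = 0.0329). Relative to the all-gene median, the WB436B change of CALR was -0.15.

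CANX spread most widely between replicates. Its values were 84.7, 159 and 146 FPKM in vehicle, 169, 115 and 164 FPKM after siRNA, and 151, 151 and 124 FPKM with WB436B. Vehicle library 1, which had the highest estimated depth, and siRNA library 2 were low beside the others of their groups, and all groups overlapped. The vehicle coefficient of variation was 30.6%, compared with 1.85% to 6.29% for the other members except XBP1 (19.5%). The difference from vehicle was 0.23 with the siRNA (95% interval -0.32 to 0.78, adjusted p = 0.460) and 0.17 with WB436B (95% interval -0.38 to 0.73, adjusted p = 0.552). CANX was called in none of the 20 alternatives, and without vehicle library 1 these differences were -0.051 and -0.11. A change of the size seen for CALR with WB436B therefore lies inside the WB436B interval for CANX. The value of -0.60 for CALR with the siRNA lies outside the siRNA interval for CANX. Where that interval lies rests largely on vehicle library 1, so whether CANX differed from CALR with the siRNA is not settled.

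PDIA3, PDIA4 and PDIA6 encode protein disulfide isomerases, and PDIA3 (ERp57) works with calreticulin and calnexin on glycoproteins. PDIA3 (ENSG00000167004, chromosome 15) was measured at 156, 166 and 177 FPKM in vehicle, 118, 120.2 and 126 FPKM after siRNA, and 169, 141 and 156 FPKM with WB436B. The siRNA libraries were the lowest, and the WB436B libraries overlapped vehicle. The siRNA mean was 73.2% of vehicle (log2 fold change -0.45, SE 0.072, adjusted p = 0.00104). With WB436B the difference was -0.097 (95% interval -0.26 to 0.069, adjusted p = 0.266), called lower only with quantile normalization (-0.24, adjusted p = 0.0138) and turned to 0.065 without a call by median of ratios. WB436B exceeded siRNA by 0.35 (adjusted p = 0.00279). The PDIA3 gene model shares 18.9% of its exon bases with other models on the opposite strand, so how fragments were divided there is not known.

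PDIA4 (ENSG00000155660, chromosome 7), also called ERp72, varied least between vehicle libraries (coefficient of variation 1.85%) and was the only one of these isomerases whose FPKM was lowest with WB436B. It stood at 162, 161 and 167 FPKM in vehicle, 137, 139 and 138 FPKM after siRNA, and 122, 119 and 121 FPKM with WB436B. No groups overlapped. The siRNA mean was 84.3% of vehicle (log2 fold change -0.24, SE 0.033, adjusted p = 0.000388) and the WB436B mean 73.7% (-0.44, SE 0.033, adjusted p = 6.91e-06). WB436B lay below siRNA by a log2 fold change of -0.19 (adjusted p = 0.00103), which median-of-ratios scaling turned to 0.041 (adjusted p = 0.314). Both calls against vehicle were made in all 20 alternatives.

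PDIA6 (ENSG00000143870, chromosome 2), which is also known to limit IRE1 signalling, was measured at 34.3, 35.4 and 36.2 FPKM in vehicle and at 24.7, 23.7 and 24.8 FPKM after siRNA. With WB436B it held 34.5, 34.9 and 35.1 FPKM, within the vehicle range. The siRNA mean was 69.1% of vehicle (log2 fold change -0.52, SE 0.038, adjusted p = 1.26e-05), and WB436B exceeded siRNA by 0.50 (adjusted p = 9.28e-06). Against vehicle the WB436B difference was -0.018 (95% interval -0.10 to 0.068, adjusted p = 0.686). This value was decided by the scaling, being called higher by median of ratios (0.14, adjusted p = 0.00816) and lower by quantiles (-0.14, adjusted p = 0.00923). The ratio of PDIA6 to PDIA4, which no scaling changes, was 0.216 ± 0.0039 in vehicle, 0.177 ± 0.0053 after siRNA and 0.289 ± 0.0061 with WB436B (SD, n = 3), with no overlap of libraries. PDIA6 shares 25.2% of its exon bases with ATP6V1C2 on the opposite strand, the largest share among the members.

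XBP1 (ENSG00000100219, chromosome 22) encodes the factor that binds the ER stress response element and related sites once its messenger RNA is spliced by IRE1, and the gene-level FPKM does not separate spliced from unspliced forms. The vehicle libraries held 16.4, 18.6 and 23.9 FPKM, the siRNA libraries 15.5, 11.3 and 15.6 FPKM, and the WB436B libraries 13.8, 14.2 and 12 FPKM. Both treated groups lay below vehicle without overlap, though siRNA libraries 1 and 3 came close to vehicle library 1. The siRNA mean was 71.9% of vehicle (log2 fold change -0.45, SE 0.16, adjusted p = 0.0398) and the WB436B mean 67.9% (-0.51, SE 0.16, adjusted p = 0.0176). The difference between the treatments was -0.067 (95% interval -0.42 to 0.29, adjusted p = 0.718), and 0.15 without a call by median of ratios.

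The XBP1 calls were the least stable of the set beside those of DNAJB9 and SDF2L1. The siRNA call was lost in 8 of 20 alternatives, with adjusted p = 0.118 and a value of -0.30 without vehicle library 3, 0.121 and -0.30 without siRNA library 2, 0.0684 without vehicle library 2, and 0.0549 or 0.0526 without WB436B library 1 or 2. The WB436B call was lost without vehicle library 3 (-0.37, adjusted p = 0.0531), without WB436B library 3 (-0.45, adjusted p = 0.0590) and by median of ratios (-0.36, adjusted p = 0.0662, or 0.0883 with the replicate block added). Against vehicle its direction was the same in every alternative.

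The genes whose pattern over the 9 libraries was nearest to HSPA5 came from outside the set. Among 6267 other tested genes with a mean of at least 5 FPKM, and by the root mean square difference of centred log2(FPKM + 1), they were STOM (0.050), RARRES3 (0.056), CD47 (0.058), MPZL2 (0.059) and CAST (0.064), while HSPA5 itself varied by 0.346 on that measure. CD47, the surface ligand that restrains phagocytosis, averaged 23.2 FPKM in vehicle, 11.9 after siRNA and 14.7 with WB436B. Within the set CALR was nearest to HSPA5 at 0.118. For XBP1, which varied by 0.290, the nearest were SYF2 (0.112), SKA2 (0.12), MGST2 (0.128), CCNL1 (0.130) and C5orf15 (0.135), and the nearest member was PDIA4 at 0.194. These are descriptions over 9 libraries that share 3 treatments.

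Across the wider secretory pathway the siRNA and WB436B changes went both ways. Beside the members, 6 lists of 167 genes were examined, of which 161 were tested. With the siRNA 47 were called higher and 34 lower, beside 29.8% and 22.3% of all genes tested, which is close to the lists' shares. With WB436B 60 were higher and 44 lower, beside 24.9% and 41.1%, and with WB436B against siRNA 44 were higher and 50 lower, beside 20% and 44.1%. The counts of single lists below from the main fit are to be read against the same shares, but counts under other scalings are not. By median of ratios 3092 of the 12747 genes were called higher and 3275 lower with the siRNA, and 4219 and 4228 with WB436B. By quantiles the numbers were 3662 and 3076 with the siRNA, and 4133 and 3660 with WB436B. With equal totals they were 4208 and 2423 with the siRNA. The list medians after siRNA ran from -0.068 to 0.19, all above the members' -0.45. With median-of-ratios scaling the medians of the list of other chaperones and of the sensors turned negative with the siRNA (-0.023 and -0.021), that of the transport list turned positive with equal totals (0.017), and with WB436B the median of the degradation list turned positive by median of ratios and by quantiles (0.0038 and 0.013).

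**Figure D5:**
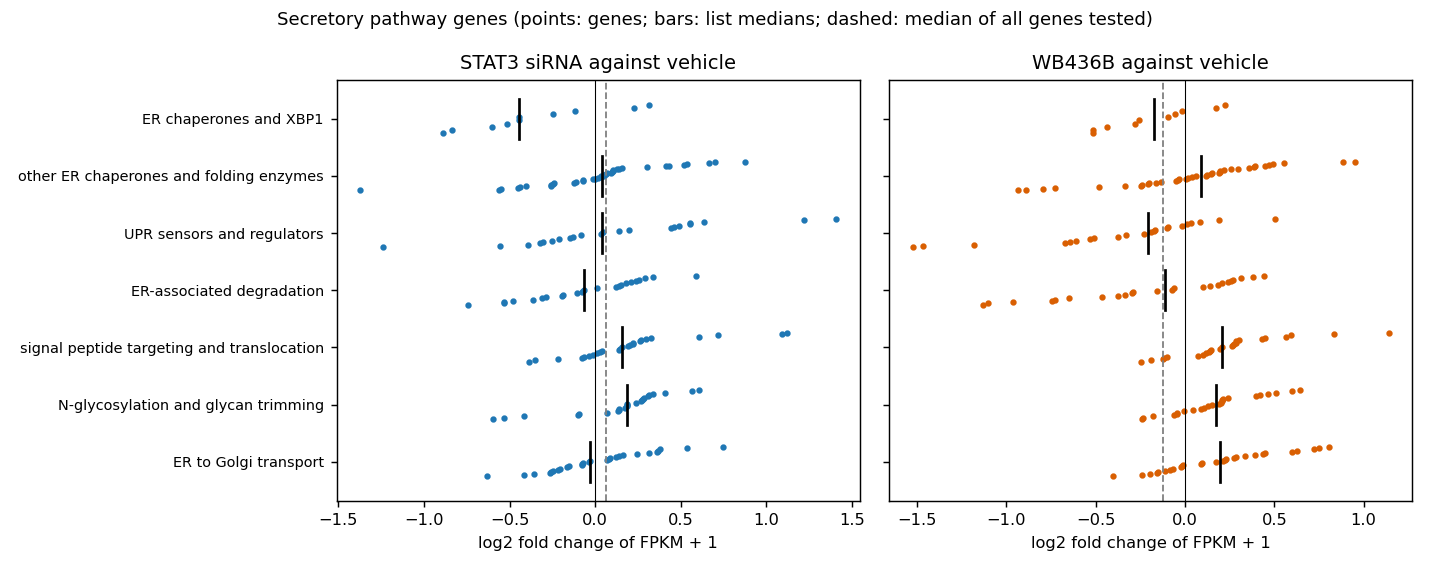
Log2 fold change of FPKM + 1 (x axis) of each tested gene of the members and of 6 secretory pathway lists (points, spread vertically by rank within a list), with list medians (black bars) and the median of all genes tested (dashed), for STAT3 siRNA and for WB436B against vehicle. The members' median lies at -0.45 after siRNA, while the other list medians lie between -0.068 and 0.19. Members and lists were chosen with earlier results of these data known.

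Of 38 other ER chaperones and folding enzymes 8 were called higher and 8 lower after siRNA (29.8% and 22.3% of all genes tested), with a median of 0.042. DNAJC3, which encodes the BiP cochaperone p58IPK, fell with both treatments, from 15.2, 15.6 and 16.3 FPKM in vehicle to 10.3, 9.90 and 10.8 FPKM after siRNA and 8.71, 8.55 and 8.64 FPKM with WB436B. Its log2 fold changes were -0.56 (adjusted p = 2.35e-05) and -0.79 (adjusted p = 1.43e-06). CLGN, a relative of calnexin, rose with the siRNA (0.87) and fell with WB436B (-0.34, but 0.054 by quantiles) from a low level of 0.516 FPKM, and it passed the filter on low values only through the siRNA libraries, where it is high. TXNDC11 fell with the siRNA (-0.55) and stood at 0.038 with WB436B, or at 0.19 and called by median of ratios. With WB436B 15 rose and 11 fell in this list (24.9% and 41.1% of all genes tested), and DNAJC3, CRELD1 (-0.89) and TMX4 (-0.73), a membrane-bound thioredoxin relative, had the smallest adjusted p.

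The sensors and regulators of the unfolded protein response were called lower in 13 of 22 cases and higher in 2 with WB436B (median -0.21), beside 41.1% and 24.9% of all genes tested, and 10 or 11 were lower and 2 to 5 higher under other scalings. With the siRNA 9 were higher and 7 lower (median 0.042), beside 29.8% and 22.3%. CREB3L1, an ER-anchored transcription factor, was measured at 2.6, 2.29 and 2.68 FPKM in vehicle, 3.85, 4.15 and 3.85 FPKM after siRNA and 0.309, 0.225 and 0.143 FPKM with WB436B. It rose with the siRNA (0.49, adjusted p = 0.000593) and fell with WB436B (-1.52, adjusted p = 5.22e-07). ERN2, the epithelial IRE1 paralogue, fell with both, by 1.24 (adjusted p = 8.11e-06) and 1.47 (adjusted p = 1.26e-06) on the log2 scale. It passed the filter on low values only through the vehicle libraries, where it is high, and such a selection favours a fall over a rise. NFYA, a subunit of the NF-Y factor that binds the CCAAT part of the element, rose with the siRNA (0.64, adjusted p = 1.38e-05) and was 0.033 with WB436B (adjusted p = 0.557; 0.18 and called by median of ratios).

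The PERK branch acts through the factor ATF4, whose own gene went opposite ways with the treatments. ATF4 rose from 152 FPKM in vehicle to 209 FPKM after siRNA (0.46, adjusted p = 0.00018) and fell to 107 FPKM with WB436B (-0.51, adjusted p = 5.06e-05). TRIB3, a pseudokinase gene induced by ATF4, rose by 1.22 with the siRNA (adjusted p = 1.03e-05) and fell by 0.23 with WB436B (adjusted p = 0.0400), a call that none of the 3 other scalings gave (adjusted p = 0.166 to 0.515). CHAC1, another ATF4 target, fell with WB436B (-1.18, adjusted p = 3.51e-06) and was -0.13 with the siRNA (adjusted p = 0.221). In the same list of sensors and regulators, PPP1R15A rose with the siRNA (0.55, adjusted p = 3.51e-05) and with WB436B (0.50, adjusted p = 2.86e-05). DDIT3 rose with the siRNA (1.41, adjusted p = 8.63e-05) and fell with WB436B (-0.61, adjusted p = 0.00571). The sensor genes themselves, named after their values were seen, also differed. ATF6 fell with the siRNA (-0.56, adjusted p = 0.000106) and with WB436B (-0.17, adjusted p = 0.0335), the latter not called under any of the 3 other scalings. ERN1, which encodes IRE1, rose with the siRNA (0.44, adjusted p = 0.000969) and was -0.10 with WB436B (adjusted p = 0.243), turning to 0.21 and called by quantiles. EIF2AK3, which encodes PERK, fell with WB436B (-0.65, adjusted p = 9.5e-06) and was -0.084 with the siRNA (adjusted p = 0.209), or -0.13 and called by quantiles.

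ER-associated degradation genes, which export misfolded proteins to the proteasome, numbered 7 higher and 7 lower of 24 with the siRNA (29.8% and 22.3% of all genes tested; 5 and 11 by median of ratios) and 7 higher and 11 lower with WB436B (24.9% and 41.1%; 9 and 9 by median of ratios). EDEM1, a lectin that marks glycoproteins for disposal, fell with both (-0.53 and -0.73). DERL1, a channel component, fell with the siRNA (-0.74) and rose with WB436B (0.26), and AUP1 rose with both (0.59 and 0.44). RNF139, a ubiquitin ligase, fell with both (-0.29 and -1.10), and OS9, another lectin, rose with the siRNA (0.15, not called by median of ratios) and fell with WB436B (-0.38). EDEM3 likewise rose with the siRNA (0.34) and fell with WB436B (-0.75).

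Of 25 genes for the machinery that brings chains into the ER, 10 were called higher and 3 lower with the siRNA, beside 29.8% and 22.3% of all genes tested, or 5 and 3 by median of ratios. With WB436B 14 were higher and 2 lower, beside 24.9% and 41.1%, or 19 and 0 by median of ratios and 10 and 3 by quantiles. SRPRB, the membrane subunit of the signal recognition particle receptor, rose with both, from 6.55 FPKM in vehicle to 15.1 and 15.6 FPKM (1.09 and 1.14). SEC11C, a signal peptidase subunit, rose more with the siRNA (1.12) than with WB436B (0.28), a difference called in the direct comparison (-0.84, adjusted p = 2.72e-05). SSR3, a translocon-associated subunit, rose with both (0.22 and 0.83), as did SRP72 (0.20 and 0.59) and TRAM2 (0.72 and 0.27), the siRNA calls of SSR3 and SRP72 being lost by median of ratios. SPCS3, another signal peptidase subunit, fell with the siRNA (-0.38) and rose with WB436B (0.14, not called by quantiles), and SRPRA did the same (-0.21, not called with equal totals, and 0.45).

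N-glycosylation genes numbered 7 higher and 3 lower of 24 with the siRNA (29.8% and 22.3% of all genes tested) and 9 higher and 3 lower with WB436B (24.9% and 41.1%; 14 and 0 by median of ratios, 7 and 2 by quantiles). The oligosaccharyltransferase genes STT3B and RPN2 fell with the siRNA (-0.53 and -0.42) and rose slightly with WB436B (0.13 and 0.11), which quantile normalization turned to -0.0062 and 0.019 without a call. MAGT1 fell with the siRNA (-0.60) and stood at 0.045 with WB436B, or 0.20 and called by median of ratios, and STT3A rose with both (0.27 and 0.42). ALG3 and ALG5, which build the lipid-linked glycan, rose with both treatments (0.61 and 0.47 for ALG3, 0.41 and 0.60 for ALG5). Among 28 genes of ER to Golgi transport, 6 rose and 6 fell with the siRNA (29.8% and 22.3% of all genes tested; 8 and 4 with equal totals, 5 and 8 by median of ratios), and 13 rose and 4 fell with WB436B (24.9% and 41.1%; 17 and 0 by median of ratios, 10 and 5 by quantiles). COPB2, a coatomer subunit, fell with the siRNA (-0.41) and stood at -0.023 with WB436B, called higher by median of ratios (0.13) and lower by quantiles (-0.13). COPB1 fell with the siRNA (-0.25) and rose with WB436B (0.21, not called by quantiles). KDELR1, a receptor that returns chaperones such as BiP to the ER, fell with both (-0.26 and -0.16), the latter lost with equal totals and turned to 0.0025 by median of ratios. The cargo receptor subunit MCFD2 and the COPII coat genes SEC13 and SEC23B rose with both (0.25 and 0.81, 0.36 and 0.63, 0.31 and 0.23; the last not called by quantiles), and TMED2 rose with WB436B (0.43, and 0.16 with the siRNA, which passed only with equal totals and by quantiles).

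Genes that share the promoter element with the members did not all share their changes. RefSeq windows held the ER stress response element in 25 genes, 6 of them members, and of the 19 others 8 were tested. With the siRNA, CRELD2 (-0.26, adjusted p = 0.0089), TMEM120A (-0.40, adjusted p = 0.00858) and SYNPO (-1.08, adjusted p = 6.34e-05) fell and SERP1, a translocon-associated protein gene, rose (0.30, adjusted p = 0.00166). ALG12, EIF2A, TRIM5 and ZNF17 did not pass the test in that comparison, with values of 0.19 (0.23 and called with equal totals), -0.057, -0.13 and 0.075. With WB436B, SYNPO (-1.47), TRIM5 (-1.01), TMEM120A (-0.62) and ALG12 (-0.24, but 0.037 by quantiles) fell, SERP1 rose (0.44), and CRELD2 (0.018; 0.26 and called by quantiles), EIF2A (0.33) and ZNF17 (0.20) did not pass. CANX, a member with the element, was not called with either treatment, while PDIA4, a member without it in its windows, fell with both. Whether the element bears on any of these changes was not tested.

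Limits on these values come mainly from the unit. FPKM are relative to a library's total, and other scalings moved the split of all genes called higher and lower from 3800 and 2838 to 3092 and 3275 with the siRNA, from 3168 and 5234 to 4219 and 4228 with WB436B, and from 2554 and 5621 to 4019 and 3916 in the direct comparison, all by median of ratios. Genes named by symbol as copies of members were weak beside those members, and their likeness in sequence was not measured. PDIA3P1 stood at 3.01 to 3.99 FPKM, PDIA3P2 at 0.888 to 3.14, XBP1P1 at 0.0902 to 1.18 and HSP90B2P at 0.0220 to 0.269. HSP90B3P was listed at 0. How fragments were divided between such copies is not known here, so the values of PDIA3, XBP1 and HSP90B1 carry that uncertainty.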

How the data were processed

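Total RNA of 9 BxPC3 libraries was sequenced after an RNeasy extraction and standard Illumina library preparation, per the labels' protocols. The authors deposited FPKM values of 60564 human Ensembl genes, with 3 empty columns that were not used. Bowtie 0.12.2 and mm8, a mouse build, are named in the submitters' processing notes. Since the identifiers are human, the build used is uncertain, and the coordinates printed are those of RefSeq windows. The sources used here do not give strandedness, read length or the program that made the FPKM values.

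A minimum of 1 FPKM in 3 or more libraries was required (12747, 21% of rows) and log2(FPKM + 1) was fitted with limma 3.58.1 in R 4.3.3 with an intensity trend, all 9 libraries, 6 residual degrees of freedom, two-sided tests and Benjamini-Hochberg adjustment over all genes tested. The fit was also run on simulated independent log2 values with few changed genes, which cannot show how scaling between libraries affects the calls. Depth was estimated from steps between low values of genes with a single transcript in GENCODE release 29, which held 96.5% of identifiers; 28.4% to 31.6% of these values were within 2% of whole fragments, so no count test was run. Correlations between log values ran from 0.980 to 0.988 within groups and 0.918 to 0.941 between them. Deviations of same-numbered libraries of different groups correlated at -0.0847 to 0.158, and 2 of 9 pairs exceeded 0.1. Between vehicle and siRNA the same-numbered pairs (0.0419, 0.119 and 0.158) lay above all pairs of unlike number (-0.124 to 0.0144). Pairs with WB436B showed no such order. The labels state no pairing, so the main fit did not treat the numbers as pairs, and a replicate block was fitted as an alternative.

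The members and gene lists were chosen with earlier results of these data known. Named genes were the 10 members, STAT3, the 3 of smallest adjusted p in each of 6 pathway lists and comparison, and the 5 nearest in pattern to HSPA5 and to XBP1. Genes sharing the promoter element, the sensor genes, PPP1R15A and DDIT3 were named after their values were seen. Motifs were searched on both strands. RefSeq windows were matched by symbol for 9 of 10 members, PDIA3 being the exception. Alternatives covered the pseudocount, the filter, 3 scalings, the groups fitted, the variance trend, a replicate block, and each library left out.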

Additional observations from a re-analysis of the deposited data

How the results depend on the processing

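Over 20 alternatives, 594 values of members were computed, of which 537 kept sign and call, 27 lost the call, 8 gained one, 4 changed sign with a call before or after, and 18, in 7 pairs of member and comparison, changed sign without one; 15 of 30 pairs kept both in every alternative. The sign changes with a call were PDIA6 with WB436B (0.14, adjusted p = 0.00816 by median of ratios and 0.0243 with the replicate block added) and PDIA4 in the direct comparison (0.041, adjusted p = 0.314 and 0.41). Members called higher with the siRNA numbered 0 with a filter of 5 FPKM, which leaves out DNAJB9 and SDF2L1, and 0 with the replicate block and median of ratios. With WB436B, members higher numbered 1 with equal totals, 2 by median of ratios, 1 by quantiles, 1 with the replicate block and 2 with the block and median of ratios; members lower numbered 3 by median of ratios and 2 with the block added. In the direct comparison, members lower numbered 1 with the filter of 5 FPKM, 1 by median of ratios and 1 with the block added. The members' median with WB436B was -0.11 with equal totals and -0.027 by median of ratios, with or without the block, and in the direct comparison 0.54, with or without the block, and 0.21 by quantiles. Leaving out each library gave medians of -0.51 to -0.35 with the siRNA (-0.35 without vehicle library 3), and with WB436B 0 to 1 members higher (1 without WB436B library 3) and 3 to 5 lower (3 without vehicle library 3 or WB436B library 3). The causes were not tested. The replicate block left members lower with the siRNA at 6, as XBP1 lost its call (adjusted p = 0.0586). The numbers went with weak shared deviations between vehicle and siRNA libraries only. Across both other groups, 1 library correlated best with its own number. Left-out fits leave 2 libraries in a group, and whether depth limits the weak members was not tested.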
